A study of Mus musculus with 8 samples.

Results

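The major urinary proteins are encoded by a cluster of closely related genes, and 10 of them are described here (Mup1, Mup2, Mup3, Mup4, Mup5, Mup6, Mup7, Mup10, Mup20 and Mup21). Members were taken as the non-control probes whose gene name in the array files equals one of these symbols, which gave 13 probes for 8 of the 10 genes, out of 56605 non-control probes. No probe carries the name Mup7 or Mup10, so these genes have no value of their own. All 8 genes with a probe passed the filter on dim signal and are among the 17565 genes tested.

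The samples are livers of male mice taken 8 h after acetaminophen, 4 from 80-week mice (80W) and 4 from 8-week mice (8W), with total RNA measured on 8 single-colour Agilent arrays. Both groups received the drug and no untreated liver was analysed here, so what belongs to age alone and what belongs to the response to the drug cannot be told apart. The sources used here give neither dose nor strain, nor do they say that the arrays of a group came from different animals, so that the p-values cover only the spread from array to array, part of which may be technical. The 80W arrays took one row of the slide and the 8W arrays the other, and this position cannot be told apart from age.

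Major urinary proteins are small secreted members of the lipocalin family, barrel-shaped carriers with a pocket for hydrophobic molecules. In male mice the liver makes them in very large amounts, and they pass through the kidney into the urine, where they hold volatile pheromones and release them slowly. Their transcription in liver depends on pulsatile growth hormone acting through STAT5b and on androgens, which makes them classic male-biased liver genes.

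All 13 probes are 60 bases long and lie on chromosome 4 of mouse build mm9, 11 of them on the minus strand. The array design lists several RefSeq genes for 3 of the probes, 1 gene for 8 and none for 2. The probe named Mup1 is listed for Mup1, Mup2, Mup19 and Mup22, the brighter Mup21 probe for Mup1, Mup2, Mup19 and Mup21, and the Mup2 probe for Mup1 and Mup2. The probes below show how closely the genes resemble each other, and capitals mark the bases that are equal where the pair is laid over each other. The dimmer Mup6 and Mup20 probes share 27 aligned bases, of which 26 are equal (96.3%). Each is printed 5′ to 3′ from the array files.
Mup6 (chr4:60016964-60017725, plus strand): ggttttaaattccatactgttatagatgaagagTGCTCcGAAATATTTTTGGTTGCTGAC
Mup20 (chr4:61713671-61713730, minus strand): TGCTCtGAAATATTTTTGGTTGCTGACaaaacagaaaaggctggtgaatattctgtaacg
The position of this Mup6 probe spans 762 bases, wider than the probe itself. RNA of one gene may therefore bind the probe of another, and a value below belongs to a probe and to whatever transcripts bind it. The Mup1 probe and the brighter Mup21 probe, which stand for these genes below, have 42 of 45 aligned bases equal (93.3%). The brighter Mup20 and Mup4 probes overlap less closely, with 45 of 52 aligned bases equal (86.5%).

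A pair of probes shows parts of the coding sequence without such an overlap among the 13. The Mup5 probe begins with the start codon, here in capitals, and runs into the leucine-rich signal peptide that sends the protein out of the cell. The Mup3 probe lies further inside the coding part and has no capitals.
Mup5 (chr4:61496097-61496156, minus strand): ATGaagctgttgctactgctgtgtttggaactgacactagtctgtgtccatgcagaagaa
Mup3 (chr4:61745794-61745853, minus strand): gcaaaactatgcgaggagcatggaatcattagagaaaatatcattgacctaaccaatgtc

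The promoters also resemble each other. RefSeq windows of 300 bases around the gene start (GRCm38.p6) were at hand for 7 of the 10 members, and the letters TATATAA, a form of the TATA box, occurred on either strand in 6 of the 7, against 3.5% of all 27025 promoters. The letters TTCNNNGAA, the core that STAT proteins bind, occurred in 0 of the 7 windows, against 8.5% of all promoters, and CCAAT in 1 (Mup7), against 37.9%. These are matches of letters in a short window and say nothing of binding. The 50 bases around the match are shown for the 6 genes, with the TATA letters in capitals, because the same stretch recurs from gene to gene.
Mup2 (chr4:60139854-60139903, minus strand): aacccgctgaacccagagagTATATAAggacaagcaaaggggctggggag
Mup10 (chr4:60582156-60582205, minus strand): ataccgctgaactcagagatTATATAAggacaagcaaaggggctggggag
Mup4 (chr4:59960667-59960716, minus strand): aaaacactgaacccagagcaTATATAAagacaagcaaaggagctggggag
Mup6 (chr4:60003432-60003481, plus strand): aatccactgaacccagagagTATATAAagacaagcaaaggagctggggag
Mup3 (chr4:62087299-62087348, minus strand): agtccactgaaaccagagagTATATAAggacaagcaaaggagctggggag
Mup21 (chr4:62150820-62150869, minus strand): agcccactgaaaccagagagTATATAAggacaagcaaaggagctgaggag
The first TATA letter lay 27 to 30 bases before the annotated start in Mup2, Mup4, Mup6 and Mup10, and 8 and 11 bases before it in Mup21 and Mup3.

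All 8 hepatocyte markers listed (Alb, Ttr and Cyp2e1 among them) were well above background on all 8 arrays. Their summed signal, relative to the 75th percentile of the array, ran from 3311 to 5303 in 80W and from 2061 to 4737 in 8W livers. In bulk liver RNA, fewer hepatocytes and less RNA per hepatocyte cannot be told apart. The arrays differed in brightness. The 75th percentile of the signal was 154.7, 214.8, 218.7 and 264.8 intensity units on 80W replicates 1 to 4. It was 224.8, 352.8, 179.6 and 178.2 on 8W replicates 1 to 4, and its range over the arrays was 1.19 on the log2 scale. The summed hepatocyte signal was lowest on 8W replicate 2, where the percentile was highest. It was highest on 80W replicate 1, where the percentile was lowest. The part of the scaling in the range of this sum was not tested.

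The comparison asked whether the level of major urinary protein transcripts depended on age. They did not pass the test in either direction: with limma, 0 of the 8 members tested were called at an adjusted p under 0.05, against 0.359% of all 17565 genes, and 0 of 8 had an unadjusted p under 0.05, against 14.1% of all genes. The groups overlapped for every one of the 8, and they did not overlap for 8.38% of all genes. With 8 members whose values rose and fell together, counts of 0 do not set them apart from these shares. The log2 differences, 80W minus 8W, ran from -0.03 (Mup3) to 0.13 (Mup5) with a median of 0.05, beside a median of 0.02 over all genes, and 6 were positive and 2 negative. The 95% intervals of the 8 members all lay between -0.67 and 0.82, that is between 0.628-fold and 1.76-fold, so changes within those limits remain possible. These limits are not a threshold of detection. A call over 17565 genes asks for more than an interval that leaves out 0, so a larger change could also go uncalled. Adjusted p-values ran from 0.852 to 0.994.

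Values from here on are log2 signal minus the log2 75th percentile of the same array, for the brightest probe of a gene unless another is named. They are compared within a probe and not between probes, whose brightness differs for reasons other than RNA level.

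Mup1, a classic liver member found in male urine, had values of 10.03, 9.49, 9.45 and 9.26 on the 4 arrays of 80W livers, against 9.64, 8.86, 9.78 and 9.92 in 8W livers. The highest value was an 80W one and the lowest an 8W one, with the rest intermixed. The means were 9.55 ± 0.33 in 80W and 9.55 ± 0.47 in 8W livers (SD, n = 4 each), a difference of 0.01 (SE 0.27, 95% interval -0.61 to 0.62, limma adjusted p = 0.994).

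Mup2, whose probe is also listed for Mup1, had values of 9.77, 9.02, 8.99 and 8.98 in 80W livers, against 9.29, 8.36, 9.32 and 9.45 in 8W livers. Here 1 array of each age stood apart, 80W replicate 1 above and 8W replicate 2 below, and the other 6 lay between 8.98 and 9.45. The difference was 0.09 (SE 0.29, 95% interval -0.57 to 0.75, limma adjusted p = 0.903).

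Mup20 encodes darcin, the urinary protein that female mice recognise as a male odour and learn from. Its values were 10.11, 9.67, 9.51 and 9.39 in 80W livers, against 9.75, 9.03, 9.87 and 10.08 in 8W livers. The ages overlapped over most of their range, and the difference was -0.01 (SE 0.27, 95% interval -0.61 to 0.59, limma adjusted p = 0.986). Its second probe, the one shown above beside Mup6, gave 0.02 (95% interval -0.67 to 0.71).

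Mup3, also a liver member, had values of 10.18, 9.55, 9.55 and 9.35 in 80W livers, against 9.79, 9.08, 9.92 and 9.98 in 8W livers. The difference was -0.03 (SE 0.27, 95% interval -0.63 to 0.57, limma adjusted p = 0.964), and the coding probe printed above gave -0.04.

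Mup4 and Mup5 are known best from glands of the head, with Mup4 in the lachrymal and Mup5 in the submaxillary gland. Mup4 had values of 9.72, 9.34, 9.31 and 9.07 in 80W livers, against 9.31, 8.54, 9.51 and 9.63 in 8W livers. Mup5 had values of 9.43, 9.06, 8.91 and 8.87 in 80W livers, against 9.11, 8.03, 9.28 and 9.33 in 8W livers. They had the largest differences of the 8, at 0.11 (SE 0.27, limma adjusted p = 0.858) for Mup4 and 0.13 (SE 0.30, limma adjusted p = 0.852) for Mup5, and in both the ages overlapped.

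Mup6 had values of 8.47, 8.04, 7.62 and 7.84 in 80W livers, against 8.07, 7.07, 8.29 and 8.38 in 8W livers. Mup21 had values of 10.22, 9.63, 9.57 and 9.53 in 80W livers, against 9.81, 8.95, 9.91 and 10.04 in 8W livers. Neither passed the test, with differences of 0.04 (SE 0.32, limma adjusted p = 0.959) for Mup6 and 0.06 (SE 0.28, limma adjusted p = 0.940) for Mup21. The dimmer probe of each gave 0.19 (95% interval -0.52 to 0.90) for Mup6 and 0.08 (95% interval -0.80 to 0.96) for Mup21.

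**Figure D1:**
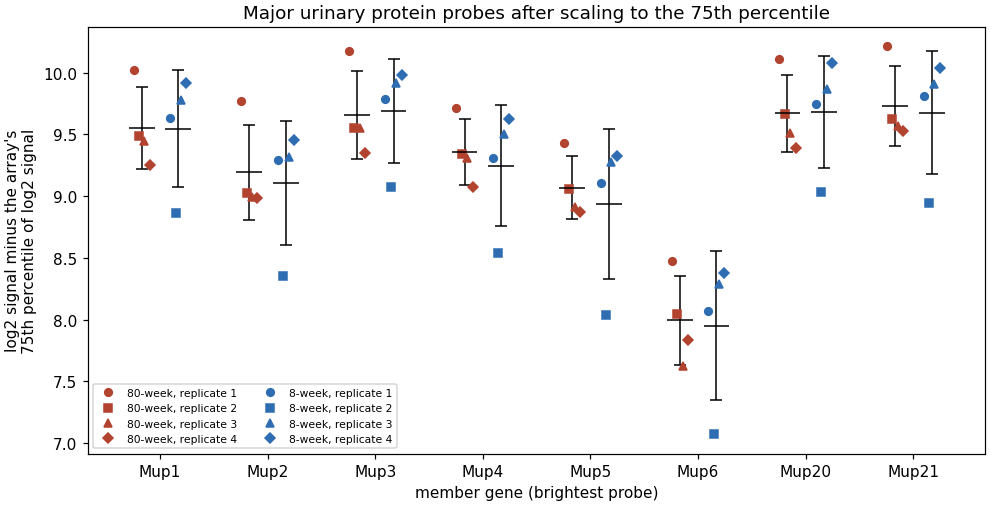
Log2 signal relative to the 75th percentile of the array (vertical axis) for the brightest probe of each of the 8 members with a probe (horizontal axis), with 80-week livers left of 8-week livers, symbols for replicates 1 to 4, and bars for mean ± SD (n = 4 each). In every member 80W replicate 1 is the highest point and 8W replicate 2 the lowest, and the ages overlap; heights are not comparable between genes.

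The 8 members were ordered almost alike over the arrays. All 8 were highest on 80W replicate 1 and lowest on 8W replicate 2. Their spread within a group was larger in 8W livers for 8 of 8 members, with SDs of 0.26 to 0.39 in 80W and 0.42 to 0.61 in 8W livers. That rested on 8W replicate 2. Without it the SDs of 8W livers were 0.087 to 0.17, and they were smaller than those of 80W livers for 8 of 8 members. The SDs of 80W livers still held 80W replicate 1, the highest array of all 8 members. An extreme array was thus left out of 8W livers only, and the SDs are not compared on like terms. Without 8W replicate 2 the median difference of the 8 members was -0.20, with 0 of 8 positive and 0 called. Without 80W replicate 1 the median was -0.11, with 1 of 8 positive, so the sign of these small differences rests on either of these arrays. The median was -0.27 with array weights and also without 8W replicates 1 and 2 together, with no member called.

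The order of the arrays was close to that of their brightness turned round. Before scaling, the signal of Mup1 was 161305, 154322, 152606 and 161898 intensity units on the 80W arrays, against 178820, 164364, 157626 and 172145 on the 8W arrays. That of Mup4 was 130342, 139428, 138643 and 142626 on the 80W arrays, against 142671, 131221, 130722 and 140956 on the 8W arrays. Neither gene moved by much from array to array on this scale: the lowest and the highest array differed by 0.23 for Mup1 and by 0.13 for Mup4 in log2.

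Over the 8 members the unscaled log2 range across the arrays was 0.13 to 0.49, with a median of 0.30, and after scaling it was 1.08 to 1.41, with a median of 1.22. A scaled value is the unscaled one minus the log2 75th percentile, and the mean profile of the members lay within 0.143 of the percentile with its sign turned on every array. Unscaled, the differences between ages ran from -0.13 (Mup3) to 0.03 (Mup5), and 6 of the 8 were negative. No spot on any array was marked saturated, and no spot held saturated pixels. Whether a limit of the scanner or of the hybridisation short of that mark keeps the unscaled signal of these probes flat was not tested, and such a limit would narrow any difference between the ages and its interval. The highest processed signals of the arrays were 305328 to 341574 units, and the 12 brighter member probes ran from 6850.1 to 202299 units.

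**Figure D2:**
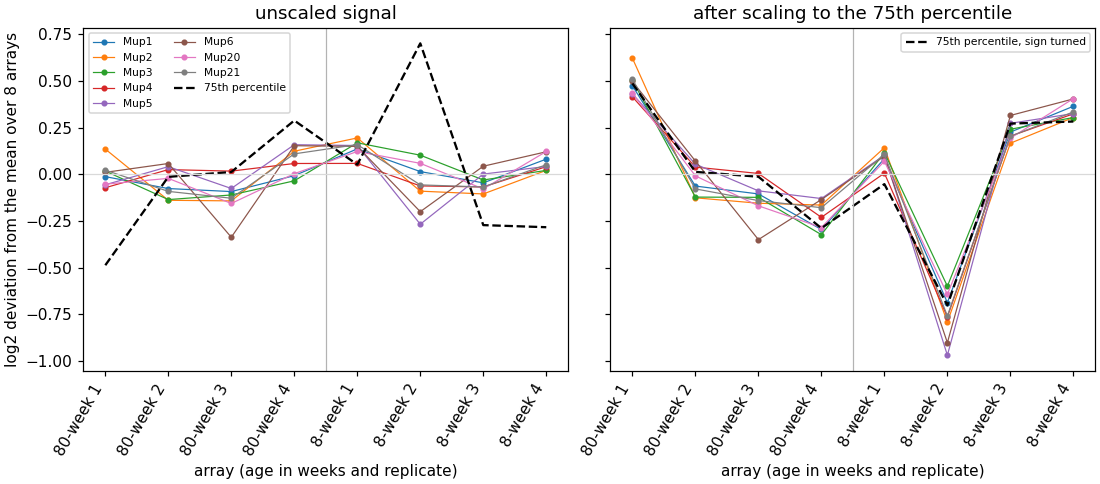
Deviation from the mean over the 8 arrays in log2 (vertical axis) for the 8 members, by array (horizontal axis, 80-week left of 8-week), before scaling on the left and after it on the right; dashed lines show the 75th percentile itself on the left and with its sign turned on the right. The members stay close to 0 before scaling, within a range of 0.13 to 0.49, and follow the dashed line after it.

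Other bright genes behaved alike in part. The 206 other genes whose mean unscaled log2 signal was over 16 had a median range over the arrays of 0.62 before and 1.16 after scaling, where the members had 0.30 and 1.22. Among genes of middle brightness, between 10 and 12, the median range was 1.47 before and 0.993 after scaling. Scaling thus narrowed the spread of genes in the middle of the brightness range and widened that of the brightest genes and of the members. The part of array brightness in the differences between ages was not tested.

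**Figure D3:**
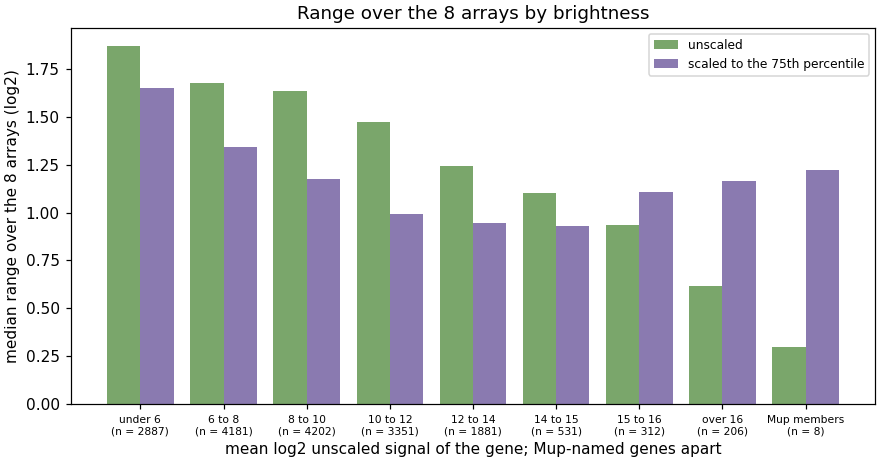
Median range over the 8 arrays in log2 (vertical axis) for tested genes grouped by mean unscaled log2 signal (horizontal axis, number of genes in brackets, genes named Mup left out), with the 8 members at the right; green bars are unscaled values and purple bars values after scaling. The unscaled range falls with brightness to 0.62 over 16 and is 0.30 in the members, whereas the scaled range is 1.16 and 1.22.

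The dimmest of the 13 probes stood apart from the other 12. It is another Mup3 probe, on chromosome 4, 61743330 to 61743389 (mm9, minus strand), 1120 bases beyond the probe at the end of the Mup3 transcript, and it is listed for a cDNA clone and for no RefSeq gene. Its values were -3.07, -3.34, -2.35 and -3.04 in 80W livers, against -2.36, -1.68, -2.15 and -2.59 in 8W livers. It was well above background on 1 of 4 arrays of 80W and 4 of 4 arrays of 8W livers, at 18.4 to 43 units in 80W and 29.6 to 110.2 units in 8W livers.

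The ages overlapped at this probe. It passed the filter through the 8W arrays and was near background on most of the 80W arrays, so the size of its difference was not measured and no test of it is given. In the limma fit over 25738 probes 0 of the 12 brighter member probes were called. The share of all probes was 0.315% in either direction and 0.0311% lower in 80W. Of these 12, 0 had an unadjusted p under 0.05, against 14.1% of all probes. The ages failed to overlap for 0 of the 13 member probes, against 8.14%. With so few probes, counts of 0 do not set them apart from these shares. Over the 12 brighter probes the differences ran from -0.04 to 0.19, with 9 positive and 3 negative.

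**Figure D4:**
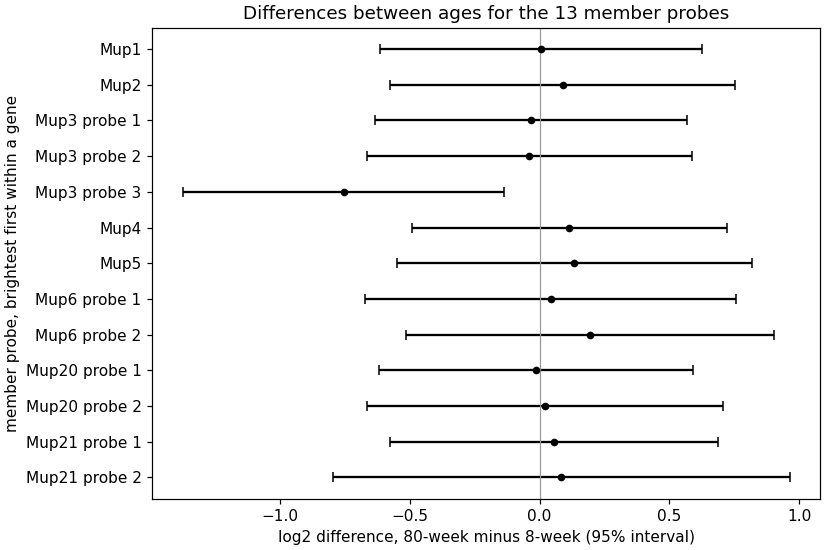
Log2 difference, 80-week minus 8-week livers (horizontal axis), with its 95% interval for each of the 13 member probes (vertical axis; within a gene the brightest probe is probe 1). The intervals of the 12 brighter probes cross 0. That of Mup3 probe 3 rests on 80W signal above background on 1 of 4 arrays, so it measures no size and is not read as a test.

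By Pearson correlation over the 8 arrays with the mean profile of the members, the 6 most similar genes outside the members were Apoc1 (0.997), an apolipoprotein gene, Mup-ps16 (0.996), named as a Mup pseudogene, Clu (0.996), which encodes the secreted chaperone clusterin, Serpina1b (0.993), an alpha-1-antitrypsin gene, Atp5g3 (0.993), a subunit of mitochondrial ATP synthase, and Gm20751 (0.992). The brighter Mup-ps16 probe has 49 of 55 aligned bases equal with the brighter Mup20 probe (89.1%). With the Mup4 probe it has 43 of 47 (91.5%), so it may bind the same RNA as member probes. The members themselves had 0.977 to 0.997. All these values share the scaling of the same 8 arrays, and the coefficients are a description of them. With quantile scaling in its place the 6 coefficients ran from -0.51 to 0.88, and with no scaling from 0.43 to 0.92, so the likeness depended on the scaling. It also depended on the choice of probe: with the mean of the probes of a gene, Mup-ps16 had 0.305 and Atp5g3 0.857. The second Mup-ps16 probe in that mean was above background on only 3 of 4 arrays of 80W and 1 of 4 arrays of 8W livers. The 6 genes had unscaled log2 ranges of 0.17 to 0.32 over the arrays.

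A list of 25 genes holds regulators of Mup transcription, members of growth hormone signalling and hepatocyte transcription factors, and 23 of them were tested. Their median difference was 0.35, beside 0.02 over all genes, with 18 positive and 5 negative.

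The regulators named here did not pass. Igfals, which encodes a partner of IGF1 in blood and answers to growth hormone, had 2.27, 2.59, 2.51 and 2.33 in 80W livers, against 0.16, -1.32, 0.70 and 1.58 in 8W livers. The ages did not overlap, and the difference was 2.14 (SE 0.51, limma adjusted p = 0.148). Over the list they did not overlap for 5 of the 23 tested, against 8.38% of all genes. Ppara, a receptor for fatty acids, differed by 1.00 (limma adjusted p = 0.227), and Foxa2, a hepatocyte transcription factor, by -0.83 (limma adjusted p = 0.305). Chosen after their values were seen, the growth hormone receptor Ghr had a difference of 0.80 (SE 0.35), its effector Stat5b 0.30 (SE 0.22) and its secreted target Igf1 0.43 (SE 0.25), none of them called. Without 8W replicate 2 these were 0.45 for Ghr, 0.13 for Stat5b and 0.19 for Igf1. Dimmer Ghr probes gave larger differences of 0.82, 1.13 and 1.41, and dimmer Igf1 probes 0.53 and 1.56, none of them called. The mean of the probes of a gene gave 1.04 for Ghr and 0.84 for Igf1, also not called. Without 8W replicates 1 and 2 together Igfals gave 1.28. Of the 25, Cux2 and Zhx2 were not tested.

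Mup genes belong to the male-biased genes of the liver, of which 24 of another 25 listed were tested. In that list 1 rose, against 0.33% of all genes that were higher in 80W, and 0 fell, against 0.0285% that were lower, with 19 positive, 5 negative and a median of 0.30. Susd4, a complement regulator, was the one that rose, at 4.52, 4.59, 3.099 and 3.78 in 80W livers, against 0.46, -0.73, 0.60 and 0.50 in 8W livers. Its difference was 3.79 (SE 0.40, limma adjusted p = 0.00496), and without 8W replicates 1 and 2 together it was 3.45 (limma adjusted p = 0.0868). Nudt7, a peroxisomal hydrolase, had 2.56 (limma adjusted p = 0.146) and Cyp7b1, a steroid hydroxylase, 2.03 (limma adjusted p = 0.173). Nox4, an NADPH oxidase, had 0.93 (limma adjusted p = 0.279), and in all 3 the ages did not overlap. These genes were named because their p was among the smallest of the list. Over the list the ages did not overlap for 4 of the 24 tested, against 8.38% of all genes. Nudt7 gave 1.41 without 8W replicates 1 and 2 together, and Nox4 gave 0.59 with normexp.

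Among female-biased liver genes 16 of 26 listed were tested, with 7 positive, 9 negative and a median of -0.13. Limma called 0, against 0.359% of all genes, and 4 had an unadjusted p under 0.05, against 14.1% of all genes. The neurotrophin receptor Ntrk2 differed by 1.33 (limma adjusted p = 0.211), Fmo2 by -0.82 (0.340) and Cyp2c69 by 1.13 (0.353). Without 8W replicates 1 and 2 together Fmo2 gave -1.31 and Cyp2c69 0.42.

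The Mup genes were next set beside their protein family. Of 12 other lipocalins 11 were tested, with 4 positive, 7 negative and a median of -0.04. Limma called 0, against 0.359% of all genes, and 2 had an unadjusted p under 0.05, against 14.1% of all genes. Orm3, an orosomucoid gene of the acute phase response, had 0.89, 1.28, 2.48 and 2.40 in 80W livers, against 0.13, -1.20, -0.23 and 0.50 in 8W livers. The ages did not overlap, and the difference was 1.96 (limma adjusted p = 0.142). Orm3 was the only 1 of the 11 without overlap, against 8.38% of all genes. The brighter orosomucoid genes of the list, chosen after their values were seen, differed by -0.04 (Orm1, limma adjusted p = 0.945) and -0.06 (Orm2, 0.906). Apod, an apolipoprotein, differed by -1.43 (limma adjusted p = 0.306), with 2 of 4 arrays of 80W livers above background, Apom, which carries sphingosine 1-phosphate, by -0.56 (0.368), and C8g, a complement component, by 0.49 (0.485). C8g gave 0.16 without 8W replicate 2, Apom gave -0.91 without 8W replicates 1 and 2 together, and Apod gave -0.63 with normexp.

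The last list holds other abundant proteins that hepatocytes secrete. All 24 were tested. Limma called 0, against 0.359% of all genes, and 0 had an unadjusted p under 0.05, against 14.1% of all genes. Of the 24, 17 were positive and 7 negative, with a median of 0.05, beside 0.05 for the Mup members. Their differences ran from -0.12 (Fga, a fibrinogen chain) to 0.20 (Apoc3, an apolipoprotein of triglyceride-rich particles). Itih4 differed by 0.10 (SE 0.20) and Plg, which encodes plasminogen, by 0.12 (SE 0.24).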

How the data were processed

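The authors deposited scanner files of spot intensity. Per the file headers the software was Feature Extraction 10.7.3.1, which corrected for background, and version 9.1 is given in the submitters' processing notes. The intensity values of the authors' deposited table lay within 1% of the processed signal at 100% of 56605 probes, array by array, so they were unscaled; column medians were 14.2 to 28.1, and the table served as an alternative.

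Here, spots marked as outliers (59 to 97 an array) were left out, spots of 1 probe were averaged, and the deposited intensity was taken as log2 minus the log2 75th percentile of each array's non-control probes. A probe was tested when well above background on at least 4 of 8 arrays, and the brightest tested probe stood for a gene. On each array 43.3% to 50.4% of probes were well above background. The test was lmFit with eBayes from limma 3.58.1 (R 4.3.3) over all 17565 genes, adjusted by Benjamini-Hochberg and called under 0.05, and separately over 25738 probes. The number of arrays limits the precision.

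The members and lists were chosen with earlier results of these data known. Named genes are the members, from each list the 4 tested genes or fewer whose p was smallest, and the 6 genes most correlated with the mean member profile. A list of pheromone receptors and olfactory genes gave no tested gene. Some genes and sequences that these rules select are not reported here. Probe sequences and positions are from the array files (mm9) and promoters from RefSeq (GRCm38.p6). The script was tested on simulated data. The alternatives were normexp, quantile and median scaling, no scaling, other filters, averaged probes per gene, a trended prior, array weights, a replicate block, retained outlier spots, the authors' table and omitted arrays.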

Additional observations from a re-analysis of the deposited data

Results flagged for a closer look

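In 8 of 80 groups of 4 values examined (10%), 1 array lay far from the other 3. Chance gives about 5% where groups are independent. These groups were not, since the members followed one another and all values share the scaling of the same arrays, so the 2 shares do not show an excess. Mup2 was 9.77 on 80W replicate 1, with the other 80W arrays at 8.98 to 9.02, and 8.36 on 8W replicate 2, with the other 8W arrays at 9.29 to 9.45. The brighter Mup21 probe was 10.22 on 80W replicate 1, with the others at 9.53 to 9.63, and the coding Mup3 probe was 7.4 on 8W replicate 2, with the others at 8.28 to 8.37. Susd4 was -0.73 on 8W replicate 2, with the others at 0.46 to 0.60, and Apoc3 was 7.96 on that array, with the others at 8.98 to 9.17. Apod was -2.7 on 80W replicate 1, with the others at -3.31 to -3.22, and Fga was 5.98 on 80W replicate 3, with the others at 6.12 to 6.15. The array was 80W replicate 1 or 8W replicate 2 in 7 of the 8.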

How the results depend on the processing

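No member was called, or had ages that did not overlap, under any of 21 other settings, where the lowest adjusted p was 0.431 (array weights). The small differences changed sign. With array weights they were -0.29 (Mup1), -0.22 (Mup2), -0.19 (Mup4), -0.22 (Mup5), -0.34 (Mup6), -0.25 (Mup21), -0.17 (Apoc3) and -0.10 (Plg). Without 8W replicates 1 and 2 together they were -0.29 (Mup1), -0.19 (Mup2), -0.21 (Mup4), -0.23 (Mup5), -0.34 (Mup6), -0.24 (Mup21), -0.15 (Apoc3) and -0.15 (Plg). Median scaling gave -0.099 (Mup1), -0.016 (Mup2), -0.062 (Mup6), -0.048 (Mup21) and -0.0043 (Itih4). No scaling, an alternative chosen after seeing the data, gave -0.094 (Mup1), -0.011 (Mup2), -0.057 (Mup6) and -0.043 (Mup21). Quantile scaling gave -0.025 (Mup1), -0.0065 (Mup2) and -0.041 (Mup6), and a correlation of -0.51 for Serpina1b. Normexp gave -0.015 for Mup1, and the mean of a gene's probes 0.0040 for Mup20 and 0.23 for Fga. For Mup3 that mean was -0.28, with no change of sign. It takes in the dim Mup3 probe near background, whose difference was not measured, while the 2 brighter Mup3 probes gave -0.03 and -0.04. With 1 array left out, the differences ran from -0.22 to 0.13 (Mup1), -0.16 to 0.21 (Mup2), -0.24 to 0.071 (Mup3), -0.12 to 0.24 (Mup4), -0.17 to 0.26 (Mup5), -0.25 to 0.18 (Mup6), -0.23 to 0.12 (Mup20), -0.19 to 0.18 (Mup21), -0.089 to 0.32 (Apoc3), -0.014 to 0.22 (Itih4) and -0.10 to 0.26 (Plg). The genes called over the whole array were 63 as reported, 27 to 77 with 1 array left out, 14 without 8W replicates 1 and 2 together, 172 with array weights and 21 with signal required on all arrays. Median scaling moved the median of all genes to -0.09, and the member median was then -0.06. Same-numbered arrays of the 2 ages deviated together by correlations of 0.0256, 0.141, 0.114 and 0.104, so the numbers were not taken as pairs. With the replicate block 0 members were called, at a lowest adjusted p of 0.841, and 53 genes were higher and 17 lower, against 58 and 5 without it. The cause of these shifts was not tested.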

Other observations

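Outside the 10 members, 8 further probes carry a Mup name, and those shown here were chosen after their values were seen. The ages did not overlap at the dimmer of the 2 Mup-ps16 probes. It was above background on 3 of 4 arrays of 80W and 1 of 4 arrays of 8W livers, at 28.4, 50.9, 149 and 144.9 intensity units in 80W livers, against 6.3, 5.3, 24.7 and 5.2 units in 8W livers. Most of the 8W values were not above background, so no size or test of this difference is given. The 2 Mup11 probes differed by 0.76 (limma adjusted p = 0.451) and 0.79 (limma adjusted p = 0.456), with values of 3.80, 4.03, 4.02 and 3.999 in 80W livers, against 3.37, 1.65, 3.76 and 4.04 in 8W livers at the brighter one. The SDs of the 2 probes were 0.11 and 0.08 in 80W livers, against 1.07 and 1.14 in 8W livers, with no test of spread. Without 8W replicate 2 the SDs in 8W livers were 0.34 and 0.70, and the differences 0.24 and 0.29.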
